A study of Mus musculus with 9 samples.

Results

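Gene expression was compared between embryoid bodies made from Hbxip-/- (KO) and wild-type (WT) E14 cells, which are mouse embryonic stem cells from strain 129, by RNA sequencing of total RNA. The comparison takes the libraries labelled EB_KO_1 and EB_KO_2 and the library labelled EB_WT, which are 3 of the 9 libraries in the series. The other 6 libraries hold the same genotypes, 2 KO and 1 WT each, on day 4 without LIF and in pluripotent culture. The labels give neither the age of the embryoid bodies, nor how the deletion was made, nor whether the KO libraries came from separate clones or cultures, so the p-values reflect no more than how these libraries vary, which may be technical.

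Hbxip, now named Lamtor5, encodes a subunit of Ragulator, the complex that holds the Rag GTPases on the lysosome surface, where mTORC1 is activated by amino acids. Rag GTPases and folliculin also hold the transcription factors TFEB and TFE3 in the cytoplasm, and TFEB and TFE3 drive genes of lysosomes and autophagy. Embryoid bodies are aggregates of embryonic stem cells that leave the naive state, pass through an epiblast-like state and begin to form germ layers. WNT, Nodal and FGF signals induce the primitive streak, the source of mesoderm and definitive endoderm.

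The embryoid body libraries held 10276499 and 10604111 rounded counts for KO and 10335770 for WT, and 3 counts, the limit that a count of 0 allows, were worth 0.292, 0.283 and 0.290 CPM, the count scaled to library size. A gene was called where edgeR's quasi-likelihood test gave a Benjamini-Hochberg adjusted p below 0.05 over the 13990 genes tested and both KO libraries lay on the same side of the WT library in scaled CPM. The verbs rose and fell are used of called genes, whose KO and WT values therefore do not overlap. Levels are FPKM, which scale by gene length, and fold changes are fitted log2 values of KO over WT with their standard error (SE). WT has 1 library, so the spread in the test came from the KO pairs of the 3 cultures. On the first component, which held 51.8% of the variance of all 9 libraries, the embryoid body KO libraries lay at -8.9 and -13.6 and the WT library at -53.1. On the second, with 20.7%, they lay at 22.5 and 26.2 for KO and at -31.4 for WT. In these bulk libraries fewer cells of a type and less RNA per cell cannot be told apart.

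In embryoid bodies transcript of the targeted gene was lower in KO and not absent. Lamtor5 stood at 22.99 and 18.3 FPKM in the KO libraries, against 41.8 FPKM in WT, a log2 fold change of -1.02 ± 0.15 (adjusted p = 0.000254). It fell on day 4 without LIF as well (-1.22 ± 0.16) and was not called in pluripotent culture (-0.31 ± 0.15, adjusted p = 0.0971 by the same test). The files give 1 value per gene, so reads over a deleted stretch cannot be told from the rest. Of 12 other genes of Ragulator, the Rag GTPases and their regulators, 4 rose, 1 fell and 7 were not called, where 19.4% of all genes tested rose and 17.7% fell. Rragc, a Rag GTPase that pairs with RagA or RagB, rose to 39.1 and 39.8 FPKM in KO, against 24.1 FPKM in WT (0.71 ± 0.12, adjusted p = 0.000573). Rragd, which fills the same place in the pair, fell to 13.5 and 14.2 FPKM in KO, against 20.4 FPKM in WT (-0.56 ± 0.10, adjusted p = 0.000645). Flcn, the folliculin gene, and its partners Fnip1 and Fnip2 rose by 0.52, 0.72 and 0.46 on the log2 scale. The other Ragulator subunits, Lamtor1 to Lamtor4, were not called, with log2 fold changes between -0.23 and 0.27.

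In KO embryoid bodies 2719 genes rose (19.4% of those tested) and 2482 fell (17.7%), together 37.2%. These shares are the background for every count of list members given below. At least 2-fold, 859 rose (6.14%) and 822 fell (5.88%). The sign alone is no test: both KO libraries lay above WT for 43.9% of genes, below it for 44.2%, and on either side of it for 11.9%. The median over all tested genes was 0.00 on the log2 scale.

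The 15 largest falls held 8 members of the streak, WNT, Nodal and FGF lists: Fst, Gsc, Sp5, T, Foxa2, Wnt3, Fgf8 and Evx1. These 8 had little transcript in the KO libraries of every culture and reached the level tested through WT libraries. The same holds for Enpp2, Sema6a, Lratd2, Gbp2 and Psmb8, which lay at or under 0.23 FPKM in every KO library. A large fall is thus partly built into the testing of all these genes. The lists were also chosen with earlier results of these data known, so the count is a description. Enpp2, which encodes the secreted enzyme autotaxin, stood at 0.18 and 0.23 FPKM in KO, against 14.1 FPKM in WT (-6.09 ± 0.30, adjusted p = 4.65e-08). Sema6a, a membrane semaphorin, stood at 0.17 and 0.11 FPKM in KO, against 21.6 FPKM in WT (-7.29 ± 0.19, adjusted p = 6.33e-10). The others were Lratd2, Gbp2, a GTPase induced by interferon, Psmb8, an immunoproteasome subunit, the miRNA hairpin gene Mir92-2 and the histone gene H4c1. Lratd2, Gbp2 and Psmb8 each had 1 or 2 counts over the KO pair, with ratios of 0.00683 (95% exact counting interval 0.000819 to 0.0251), 0.016 (0.000392 to 0.0958) and 0.018 (0.00213 to 0.0682). Mir92-2 and H4c1 had no count in either KO library and 9 and 6 counts in WT, at least 6.06-fold and 4.04-fold lower against 3 counts over the KO pair. Without either KO library H4c1 lost its call.

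The 15 largest rises were of more mixed kinds. Cd99, Magea4, H2-Aa, Adh1, Slfn3 and Dock10 had at most 0.56 FPKM in the WT library of any culture. They reached the level tested through KO libraries, so a large rise is partly built into their being tested. Cd99, a cell surface glycoprotein gene, had 14.9 and 19.2 FPKM in KO and no count in WT, at least 54.8-fold higher against 3 counts. Magea4, a gene of the testis-restricted MAGE family, had 6.30 and 7.82 FPKM in KO and no count in WT, at least 22.6-fold higher. Srgn, which encodes the proteoglycan serglycin, had 10.7 and 11.1 FPKM in KO, against 0.21 FPKM in WT, where 2 counts give a ratio of 51.7 (95% exact counting interval 14.1 to 430). Dmbx1, a paired-type homeobox gene, rose to 9.26 and 9.34 FPKM in KO, against 0.33 FPKM in WT (4.80 ± 0.31, adjusted p = 4.16e-07). The MHC class II gene H2-Aa had 31 and 28 counts in KO and 1 in WT, a ratio of 29.2 (interval 5.04 to 1173). Acsm4, an acyl-CoA synthetase gene, had 35 and 32 counts in KO and none in WT, at least 11.1-fold higher. Slfn3, a Schlafen family gene, had 61 and 62 counts in KO and 3 in WT, a ratio of 20.3 (interval 6.78 to 99.8). Ankrd33b, Gpr83, Adh1 and Dock10 rose by 3.91 to 4.32 on the log2 scale, and Hnf4a and Sox1 are described with their lineages. H3c10 and Ctag2l1 rested on 17 and 13 KO counts and none in WT, and both belong to families of similar copies, as do Slfn3 and H4c1, so their counts are uncertain. Without KO replicate 1 both H3c10 and Ctag2l1 lost their call, and H3c10 lost it without replicate 2 as well. DESeq2 called neither of the 2, and limma on log2(FPKM + 1) did not call H3c10.

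Of 17 primitive streak transcription factors 13 were tested, 11 fell and none rose. Of those tested, 7 averaged under 0.5 FPKM over the 6 KO libraries and reached the level tested through the WT libraries, so their fall is partly built into being tested and the count is a description. With a mean FPKM of at least 1 required, 8 were tested and 7 fell, with a median of -2.62. T, which encodes Brachyury, the factor that marks the whole streak, stood at 0.05 and 0.18 FPKM in KO, against 24.0 FPKM in WT (-7.62 ± 0.31, adjusted p = 1.34e-08). Its transcript was near 0 in both KO libraries and abundant in WT. Mixl1, a homeobox factor of mesendoderm, stood at 0.51 and 0.21 FPKM in KO, against 5.67 FPKM in WT (-3.99 ± 0.39, adjusted p = 9.04e-06). Gsc, the organizer factor goosecoid, had no count in either KO library and 46 counts in WT, at least 31.0-fold lower. Foxa2, a factor of the anterior streak and endoderm, had 0 and 1 counts in KO and 92 in WT, a ratio of 0.00538 (95% exact counting interval 0.000135 to 0.0307). Evx1, a factor of the posterior streak, had 1 count in each KO library and 59 in WT, a ratio of 0.0168 (interval 0.00199 to 0.0634). Cdx2, a factor of posterior tissue and trophoblast, had 1 and 0 counts in KO and 25 in WT, a ratio of 0.0198 (interval 0.000482 to 0.121).

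Other members kept more of their transcript. Eomes, a T-box factor of streak and endoderm, stood at 14.8 and 14.9 FPKM in KO, against 35.0 FPKM in WT (-1.24 ± 0.13, adjusted p = 1.47e-05). Cdx1 stood at 1.34 and 1.46 FPKM in KO, against 2.93 FPKM in WT, a fall that DESeq2 did not call, and Snai1, a repressor of E-cadherin, at 7.12 and 6.09 FPKM in KO, against 9.74 FPKM in WT. Snai1 lost its call without either KO library and in 7 other alternative settings. Tbx6 and Mesp2, factors of paraxial mesoderm, were not called, at 0.22 and -0.08 on the log2 scale, and Mesp1, Lhx1, Msgn1 and Cdx4 were under the level tested.

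**Figure D1:**
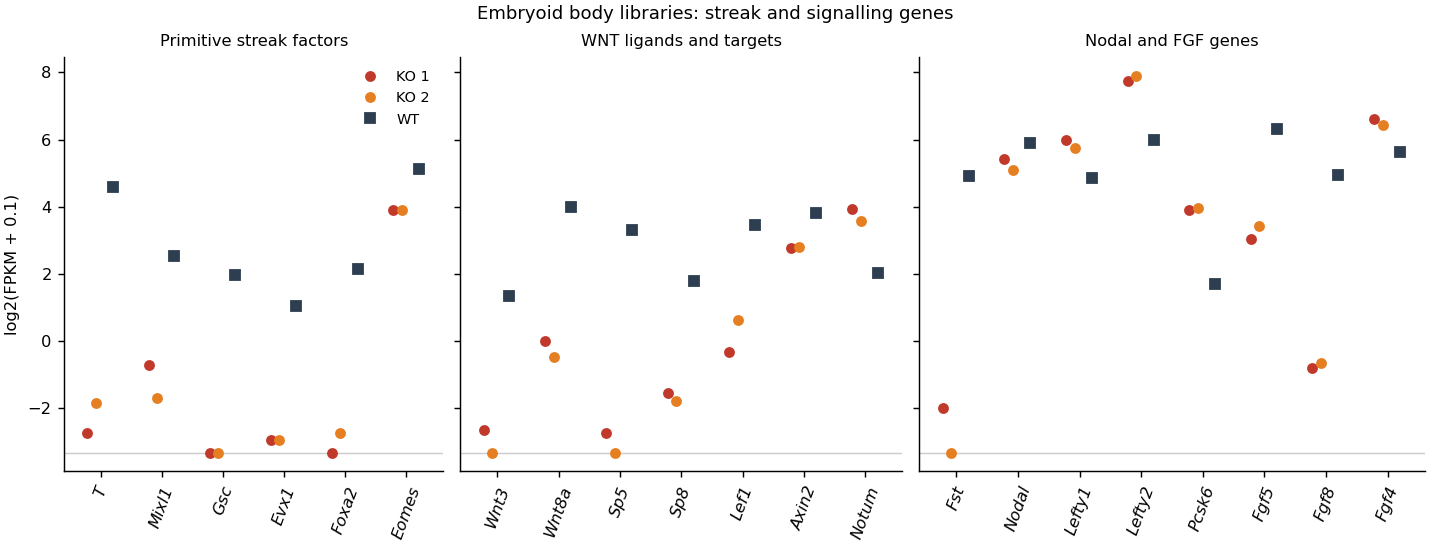
Level of 21 genes in each embryoid body library, as log2(FPKM + 0.1), with KO 1 and KO 2 as circles left of WT as squares, and a grey line at an FPKM of 0. T, Gsc, Evx1, Foxa2, Wnt3, Sp5 and Fst lie near the line in both KO libraries and above it in WT, while Lefty1, Lefty2, Pcsk6, Fgf4 and Notum lie above WT in both KO libraries.

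Of 14 WNT ligand genes 7 were tested, 5 fell and 1 rose. Of those tested, 2 averaged under 0.5 FPKM over the KO libraries, and with a mean FPKM of at least 1 required, 3 were tested, 2 fell and 1 rose. Wnt3, the ligand that starts the mouse streak, had 2 and 0 counts in KO and 80 in WT, a ratio of 0.0124 (95% exact counting interval 0.00147 to 0.0462). Wnt8a, expressed in the early streak, stood at 0.90 and 0.62 FPKM in KO, against 15.8 FPKM in WT (-4.37 ± 0.27, adjusted p = 3.07e-07). Both streak ligands were thus far lower in KO than in WT. Wnt4, Wnt5b and Wnt7b fell by 1.46, 2.20 and 2.18 on the log2 scale, and DESeq2 did not call Wnt7b (adjusted p = 0.0583). Wnt6 was the exception, at 2.73 and 2.42 FPKM in KO, against 0.42 FPKM in WT (2.59 ± 0.40, adjusted p = 0.000316).

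Genes of the WNT target and feedback list moved in both directions: of 12 tested, 7 fell and 2 rose, with a median of -0.96. Of the 12, 2 averaged under 0.5 FPKM over the KO libraries, Sp5 and Sp8, so their falls are partly built into being tested. With a mean FPKM of at least 1 required, the counts were the same. Sp5, a zinc finger repressor that is a direct target of beta-catenin and TCF/LEF factors, had 1 and 0 counts in KO and 215 in WT, a ratio of 0.0023 (interval 5.8e-05 to 0.013). Its promoter is shown for the letters CTTTGAT, a sequence that TCF/LEF factors bind, here in capitals, which start 104 bases before the start site. The sequence is the 250 bases before the RefSeq start of Sp5 on the plus strand, chr2:70474673-70474922 in build GRCm38.p6, while the submitters' processing notes name mm8 for the reads.
Sp5: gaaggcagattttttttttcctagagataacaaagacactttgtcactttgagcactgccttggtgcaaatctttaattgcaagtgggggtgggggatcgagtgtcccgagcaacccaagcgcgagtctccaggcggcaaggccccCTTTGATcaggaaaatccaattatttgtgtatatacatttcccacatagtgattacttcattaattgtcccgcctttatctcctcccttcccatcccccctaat
On either strand CTTTGAT lay in the promoters, 250 bases before to 50 after the start, of 3.06% of the 10932 tested genes with a RefSeq promoter, 2.85% of those that fell and 3.18% of those that rose. It lay in 1 of 8 promoters of the WNT target list and 2 of 11 of the streak list. A match describes these letters only.

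Sp8, a relative of Sp5 and a member of the streak list as well, stood at 0.24 and 0.19 FPKM in KO, against 3.37 FPKM in WT (-3.98 ± 0.29, adjusted p = 1.06e-06). Axin2, a scaffold of the complex that degrades beta-catenin and a common WNT readout, stood at 6.73 and 6.85 FPKM in KO, against 13.9 FPKM in WT (-1.03 ± 0.12, adjusted p = 4.53e-05). Both lay lower in KO, with a much larger difference for Sp8. Lef1 and Tcf7, DNA partners of beta-catenin, fell by 3.35 and 0.88 on the log2 scale, and Nkd1, an inhibitor of the pathway, by 1.42. Notum, an enzyme that inactivates WNT ligands, rose to 15.3 and 11.9 FPKM in KO, against 3.97 FPKM in WT (1.77 ± 0.21, adjusted p = 3.76e-05). Tcf7l1 was the other member that rose (0.32). Znrf3 and Nkd2 were not called, at -0.15 and -0.41.

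Nodal pathway genes rose more often than they fell: of 15 tested, 8 rose and 3 fell, with a median of 0.61. The ligand gene Nodal fell to 42.6 and 33.8 FPKM in KO, against 59.0 FPKM in WT (-0.63 ± 0.12, adjusted p = 0.00121). Lefty2, an inhibitor that Nodal signalling induces, rose to 215 and 238 FPKM in KO, against 63.7 FPKM in WT (1.83 ± 0.10, adjusted p = 1.52e-07). Its relative Lefty1 rose to 63.5 and 54.0 FPKM in KO, against 28.8 FPKM in WT (1.02 ± 0.14, adjusted p = 0.000129). The inhibitor genes thus lay above WT in both KO libraries while the ligand gene lay below it. Tdgf1, the co-receptor Cripto, Gdf3, a ligand of the same receptors, and Pcsk6, a protease that processes Nodal, rose by 0.61, 1.40 and 2.26. Fst, which encodes the activin antagonist follistatin, stood at 0.15 and 0 FPKM in KO, against 29.8 FPKM in WT (-8.65 ± 0.33, adjusted p = 8.83e-09), the lowest fitted value among the named falls. The receptor gene Acvr2b and the cofactor gene Foxh1 were not called.

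Of 15 BMP pathway genes 3 rose, 3 fell and 9 were not called, with a median of 0.00. Of all genes tested 19.4% rose and 17.7% fell. In the list 2 genes averaged under 0.5 FPKM over the KO libraries. With a mean FPKM of at least 1 required, 3 of 14 rose and 3 fell. Bmp4, the ligand that promotes posterior mesoderm and restrains neural fate, rose to 64.3 and 50.3 FPKM in KO, against 11.2 FPKM in WT (2.34 ± 0.18, adjusted p = 1.8e-06). Its target Id2 rose to 102 and 107 FPKM in KO, against 49.2 FPKM in WT (1.08 ± 0.12, adjusted p = 3.51e-05). Msx1, a homeobox target, fell to 0.10 and 0.29 FPKM in KO, against 5.81 FPKM in WT (-4.83 ± 0.43, adjusted p = 4.62e-06). It lay at or under 0.29 FPKM in the KO libraries of every culture. Msx1 thus reached the level tested through WT libraries, and its fall is partly built into being tested. Targets of the ligand thus differed in direction, and Id3 and Smad6 were not called, at -0.12 and 0.22. The rise of Id1 (0.34) and the fall of Bmpr1a (-0.27) lost their calls without either KO library, and the fall of Bambi (-0.77) without KO replicate 1. Neither DESeq2 nor limma on log2 FPKM called any of them.

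Of 20 FGF and ERK feedback genes 10 fell, 4 rose and 6 were not called. Fgf8 is the 1 member that averaged under 0.5 FPKM over the KO libraries, so its fall is partly built into being tested. Fgf8, a ligand that streak cells need in order to migrate, stood at 0.47 and 0.54 FPKM in KO, against 30.8 FPKM in WT (-5.77 ± 0.32, adjusted p = 1.52e-07). Fgf5, the ligand of the primed epiblast, stood at 8.11 and 10.5 FPKM in KO, against 78.8 FPKM in WT (-3.08 ± 0.15, adjusted p = 4.65e-08). Fgf4, the autocrine ligand of undifferentiated cells, lay the other way, at 97.3 and 87.1 FPKM in KO, against 49.2 FPKM in WT (0.90 ± 0.10, adjusted p = 3.27e-05). The ligands of later stages were lower in KO and the ligand of the earlier stage was higher. Among the receptors Fgfr1 fell to 22.9 and 22.9 FPKM in KO, against 40.8 FPKM in WT, and Fgfr4 rose to 6.64 and 7.24 FPKM in KO, against 1.68 FPKM in WT.

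Negative feedback genes of the ERK pathway split as well. Spry1 and Spry2, Sprouty inhibitors, stood at 19 and 22.01 FPKM and at 49.3 and 52.6 FPKM in KO, against 41.1 FPKM and 81.4 FPKM in WT. Dusp6, a phosphatase of ERK, stood at 59.5 and 69.4 FPKM in KO, against 132 FPKM in WT (-1.04 ± 0.12, adjusted p = 2.88e-05). All of these fell, while Spry4 rose to 67.4 and 70.1 FPKM in KO, against 33.2 FPKM in WT, and Dusp4 to 39.4 and 55.9 FPKM in KO, against 26.2 FPKM in WT. Etv4, an ERK-induced factor, was not called (0.19). Day 4 cells were set against these values in 1 test of the difference: 8 of the 20 genes were lower in the embryoid body comparison and 2 higher, against 1.32% and 2.1% of all genes tested. For Spry1 and Dusp6 the KO over WT value in embryoid bodies minus that on day 4 was -1.35 and -1.58 (adjusted p = 0.0042 and 0.00104). The difference of Spry1 was not called by limma on log2 FPKM.

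Markers of naive pluripotency, the state of undifferentiated mouse embryonic stem cells, were higher in KO: of 17 tested, 14 rose and 2 fell, with a median of 1.06. Esrrb, an orphan nuclear receptor of the naive network, rose to 217 and 207 FPKM in KO, against 64.5 FPKM in WT (1.71 ± 0.10, adjusted p = 2.34e-07). Nr0b1, a nuclear receptor known as Dax1, rose to 102 and 101 FPKM in KO, against 26.4 FPKM in WT (1.94 ± 0.14, adjusted p = 1.12e-06). Tcl1, an AKT coactivator gene, rose to 121 and 119.6 FPKM in KO, against 38.7 FPKM in WT (1.67 ± 0.10, adjusted p = 2.03e-07). All KO values of these genes were more than 3 times the WT value. Tfcp2l1, Klf4 and Tbx3, factors that LIF sustains, rose by 1.61, 1.43 and 1.41. The most abundant members in KO were Klf2, at 422 and 401 FPKM in KO, against 193 FPKM in WT, and Zfp42, known as Rex1, at 387 and 359 FPKM in KO, against 214 FPKM in WT.

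Nanog and Dppa3 were the members that fell. Nanog stood at 181 and 144 FPKM in KO, against 214 FPKM in WT (-0.38 ± 0.12, adjusted p = 0.0218). It was called neither by limma on log2 FPKM nor without KO replicate 2 (-0.23). Dppa3, known as Stella and also a germ cell gene, stood at 0.37 and 0.36 FPKM in KO, against 9.35 FPKM in WT (-4.64 ± 0.47, adjusted p = 1.26e-05). Socs3, a STAT3 target, was not called, at 4.24 and 4.28 FPKM in KO, against 4.45 FPKM in WT.

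Genes shared by naive and primed cells gave a median of 0.18, with 6 of 14 higher, 2 lower and 6 not called. Pou5f1, which encodes OCT4, was not called, at 729 and 678 FPKM in KO, against 655 FPKM in WT. The labelled embryonic stem cell origin was thus matched by OCT4 transcript in all 3 libraries. Dnmt3l, a cofactor of the de novo DNA methyltransferases, rose to 609 and 586 FPKM in KO, against 129 FPKM in WT (2.21 ± 0.11, adjusted p = 6.2e-08). Lin28b, an inhibitor of let-7 miRNA processing, fell to 2.15 and 2.65 FPKM in KO, against 7.66 FPKM in WT (-1.68 ± 0.18, adjusted p = 1.81e-05), and Lin28a fell by 0.53. L1td1 rose by 1.11, Dppa2 by 0.66 and Sox2 by 0.35; Sox2 was not called without KO replicate 1 (0.31, adjusted p = 0.0569).

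Formative and primed epiblast genes, which cells switch on as they leave the naive state, were lower in KO: of 12 tested, 7 fell and 1 rose, with a median of -0.74. Pou3f1, a POU factor known as OCT6, stood at 5.52 and 8.65 FPKM in KO, against 43.3 FPKM in WT (-2.61 ± 0.17, adjusted p = 5.35e-07). Sox3 stood at 2.75 and 3.84 FPKM in KO, against 24.4 FPKM in WT (-2.89 ± 0.19, adjusted p = 4.39e-07). Dnmt3b, a de novo DNA methyltransferase, stood at 34.9 and 41.3 FPKM in KO, against 182 FPKM in WT (-2.28 ± 0.11, adjusted p = 4.58e-08). Every KO value of these genes lay well under the WT value. Dnmt3a lay the other way, at 34.8 and 40.0 FPKM in KO, against 22.3 FPKM in WT, and the demethylase genes Tet1 and Tet2 rose by 0.75 and 0.98. Otx2 was not called, at 113 and 129.7 FPKM in KO, against 161 FPKM in WT, nor were Zic5 and Etv4.

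**Figure D2:**
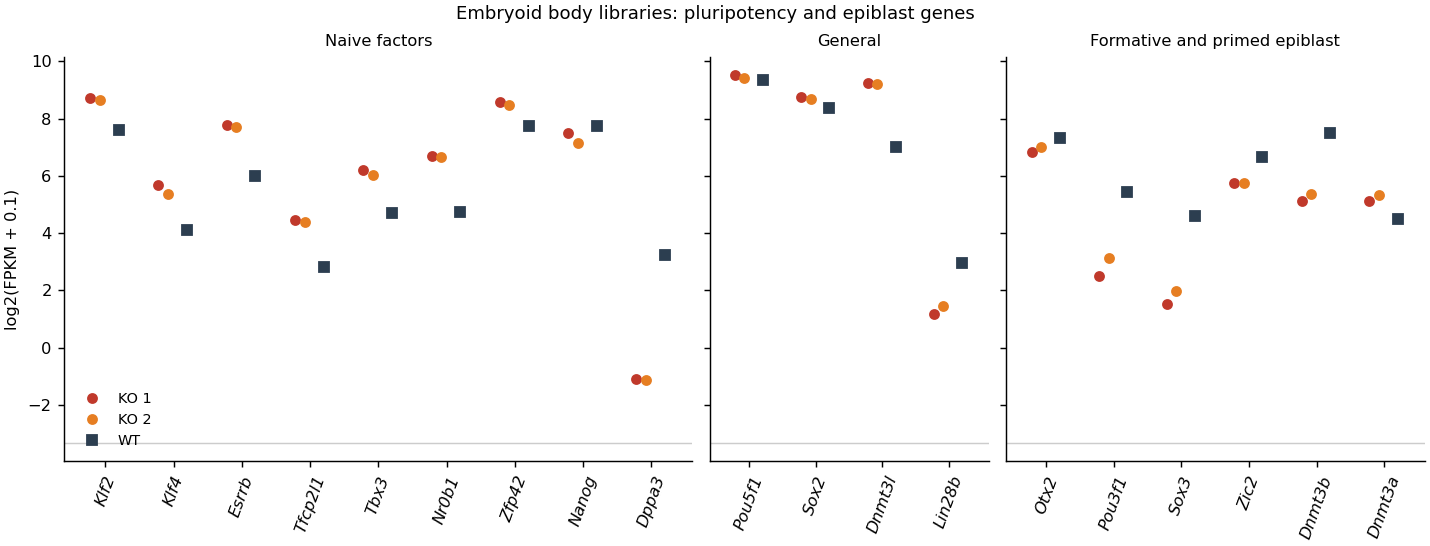
Level of 19 genes in each embryoid body library, as log2(FPKM + 0.1), with KO 1 and KO 2 as circles left of WT as squares, and a grey line at an FPKM of 0. Most naive factors lie above WT in both KO libraries, Nanog and Dppa3 lie below it, Pou5f1 differs little, and Pou3f1, Sox3 and Dnmt3b lie below WT.

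Most lineage markers were low in all 3 libraries and showed no single direction. Of 21 primitive and visceral endoderm genes 13 were tested, 2 rose and 3 fell, where 19.4% of all genes tested rose and 17.7% fell. Hnf4a, a nuclear receptor of visceral endoderm and liver, rose to 4.87 and 4.76 FPKM in KO, against 0.26 FPKM in WT (4.18 ± 0.25, adjusted p = 2.92e-07). Gata6, which specifies primitive endoderm, fell to 0.36 and 0.32 FPKM in KO, against 1.5 FPKM in WT (-2.13 ± 0.43, adjusted p = 0.0022). On day 4 Gata6 lay higher in KO, and its KO over WT value in embryoid bodies minus that on day 4 was -3.86 (adjusted p = 0.0118), a difference that limma on log2 FPKM did not call. Afp and Ttr, secreted products of visceral endoderm, were at 0 to 0.09 FPKM, and Apoe rose to 505 and 436 FPKM in KO, against 298 FPKM in WT. Of definitive endoderm genes 7 were tested and 3 fell, Foxa2, Cldn6 and the hormone gene Trh (-0.80), while Sox17 lay under the level tested.

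Of 22 neural progenitor genes 8 were tested, 4 fell and 1 rose. Sox1, the earliest neural factor, rose to 3.53 and 2.08 FPKM in KO, against 0.19 FPKM in WT (3.86 ± 0.44, adjusted p = 3.51e-05). Nes, which encodes nestin, fell to 0.94 and 0.73 FPKM in KO, against 4.15 FPKM in WT (-2.32 ± 0.18, adjusted p = 1.41e-06), and Sox11 by 1.55. Without KO replicate 1, 2 members fell. Pax6 was not called, and Six3 and Olig2 stayed under the level tested. Among blood and endothelial genes 3 of 10 rose and 3 fell, and with a mean FPKM of at least 1 required, 3 of 5 rose and 1 fell. Pecam1, an adhesion gene of endothelium and also of undifferentiated cells, rose to 40.2 and 35.9 FPKM in KO, against 10.2 FPKM in WT (1.90 ± 0.11, adjusted p = 2.76e-07), and the receptor gene Tek by 1.25. Etv2 and Gata2, factors of blood and vessel progenitors, fell by 2.19 and 2.76, and Etv2 was called neither by DESeq2 (adjusted p = 0.13) nor by limma on log2(FPKM + 0.1) (adjusted p = 0.079). The embryonic globins Hba-x and Hbb-y had 0 FPKM in all 3 libraries. Of mesoderm and cardiac genes 7 were tested, and Kdr and Tcf15 rose by 1.48 and 0.72. Kdr was not called by DESeq2, by limma on log2 FPKM or without either KO library. Of trophoblast genes 8 were tested, 5 fell and 2 rose.

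Fibroblast markers were low throughout: the summed level of 10 genes was 22.4 and 23.8 FPKM in KO, against 34.5 FPKM in WT, most of it Thy1, which other cells express. Col3a1, Postn, Lum and Dcn lay at 0 to 0.05 FPKM in all 3 libraries. Col1a1 fell to 1.33 and 1.52 FPKM in KO, against 5.81 FPKM in WT.

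Epithelial adhesion genes fell as a group: of 14 tested, 10 fell and none rose, with a median of -1.38. Esrp1, a splicing regulator of epithelial cells, stood at 1.12 and 1.37 FPKM in KO, against 21.5 FPKM in WT (-4.12 ± 0.17, adjusted p = 1.68e-08). Cldn6, a tight junction claudin of early embryonic epithelia, stood at 16.1 and 16.2 FPKM in KO, against 147 FPKM in WT (-3.19 ± 0.10, adjusted p = 1.76e-09). Krt8, a keratin of simple epithelia, stood at 9.18 and 8.64 FPKM in KO, against 33.1 FPKM in WT (-1.90 ± 0.14, adjusted p = 1.39e-06). In all of them both KO libraries lay far below WT. Cdh1, the E-cadherin gene, fell to 92.6 and 104 FPKM in KO, against 188 FPKM in WT (-0.93 ± 0.09, adjusted p = 7.09e-06). Krt18, Krt19, Krt7, Cldn7, Ocln and Epcam fell by between 0.59 and 3.93, and Tjp1, Cldn3 and Cldn4 were not called.

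Genes linked to mesenchyme did not move together: of 9 tested, 4 rose and 3 fell. Zeb1, a repressor of epithelial genes, rose to 7.12 and 7.30 FPKM in KO, against 0.83 FPKM in WT (3.10 ± 0.17, adjusted p = 1.33e-07). Vim, which encodes the filament protein vimentin, rose to 96.3 and 82.8 FPKM in KO, against 32.1 FPKM in WT (1.48 ± 0.13, adjusted p = 3.36e-06). Cdh2, the N-cadherin gene that streak cells switch on, fell to 0.48 and 0.61 FPKM in KO, against 3.13 FPKM in WT (-2.52 ± 0.23, adjusted p = 5.55e-06). Vimentin and N-cadherin, both used as mesenchymal markers, thus lay on opposite sides of WT. Fn1, the fibronectin gene, and Itga5, its receptor subunit, rose by 1.34 and 1.24, and Cdh11 fell by 2.78.

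Basement membrane genes mostly rose, 7 of 11 with 3 lower and a median of 0.46. Col4a1 and Col4a2, which lie head to head and encode the chains of collagen IV, stood at 22.7 and 16.6 FPKM and at 9.89 and 8.09 FPKM in KO, against 4.0 FPKM and 1.77 FPKM in WT. Nid1, which links laminin to collagen IV, rose to 26.1 and 25.8 FPKM in KO, against 8.85 FPKM in WT (1.55 ± 0.10, adjusted p = 3.45e-07). Lamb1, a laminin chain, fell to 9.93 and 12.2 FPKM in KO, against 25.4 FPKM in WT, while Lamc1 and Lama1 rose by 0.46 and 0.59, Lama1 not being called by limma on log2(FPKM + 1).

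**Figure D3:**
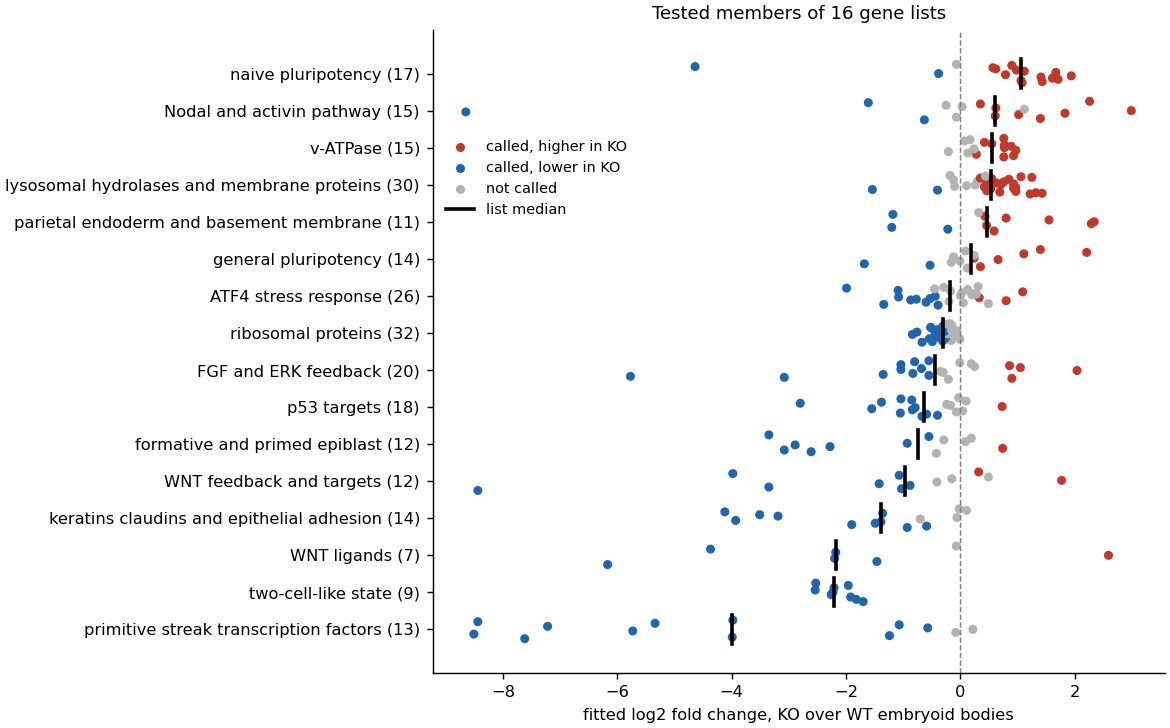
Fitted log2 fold change of KO over WT embryoid bodies for each tested member of 16 gene lists, with the number tested in parentheses, red for called and higher in KO, blue for called and lower in KO, grey for not called, and a black bar at the list median. Naive pluripotency genes lie mostly right of the dashed line at 0, with a median of 1.06. Of the 13 streak factors plotted 7 reached the level tested through WT libraries alone, so that list's position follows in part from the filter.

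Lysosomal genes rose: of 30 hydrolase and membrane protein genes 21 rose and 2 fell, with a median of 0.54. The fall of Ctsz was not called by DESeq2, by limma on log2 FPKM or without KO replicate 2. Hexa, a hydrolase that degrades gangliosides, rose to 81.8 and 77.2 FPKM in KO, against 34.1 FPKM in WT (1.22 ± 0.11, adjusted p = 5.22e-06). Ctsa, the protective protein cathepsin A, rose to 100.3 and 98.4 FPKM in KO, against 39.5 FPKM in WT (1.32 ± 0.09, adjusted p = 4.39e-07). Grn, which encodes progranulin, rose to 169 and 152 FPKM in KO, against 67.1 FPKM in WT (1.25 ± 0.10, adjusted p = 1.6e-06). In each of them both KO libraries held more than 2 times the WT level. The abundant genes Lamp1, a membrane glycoprotein, and Ctsd, cathepsin D, rose by 0.76 and 0.97. Ctsc, cathepsin C, fell to 6.42 and 6.76 FPKM in KO, against 19.5 FPKM in WT (-1.54 ± 0.15, adjusted p = 9.6e-06).

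Of 15 genes of the v-ATPase, the proton pump of the lysosome, 10 rose and none fell, with a median of 0.55. Atp6v0d1, a subunit of the membrane sector, rose to 241 and 233 FPKM in KO, against 120.3 FPKM in WT (0.97 ± 0.09, adjusted p = 8.7e-06). Atp6ap2, an accessory subunit, and Atp6v1b2, a subunit of the catalytic sector, rose by 0.93 and 0.89. None of the v-ATPase genes moved by 2-fold, and Atp6v0c, Atp6v0b, Atp6v0e, Atp6v1f and Atp6v1g1 were not called.

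The promoter of Ctsa is shown for TCACGTGA, the form of the E-box CACGTG that TFEB and TFE3 prefer, in capitals, which starts 13 bases before the start site. It is the 250 bases before the RefSeq start on the plus strand, chr2:164833523-164833772 in build GRCm38.p6.
Ctsa: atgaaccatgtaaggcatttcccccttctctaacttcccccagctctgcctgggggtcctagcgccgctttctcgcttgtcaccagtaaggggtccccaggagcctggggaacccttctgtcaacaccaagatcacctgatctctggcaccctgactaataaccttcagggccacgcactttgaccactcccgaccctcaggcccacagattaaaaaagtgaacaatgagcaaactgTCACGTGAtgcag
A further TCACGTGA lay within 50 bases after the start. Over the windows of 250 bases before to 50 after the start, TCACGTGA lay in 2.15% of the 10932 promoters of tested genes, 2.86% of those of genes that rose and 1.45% of those of genes that fell. It lay in 3 of 24 promoters of the lysosomal list and 3 of 11 of the v-ATPase list. The shorter CACGTG, which TCACGTGA contains and MYC also binds, lay in 11.9% of all promoters tested, 14.4% of those of genes that rose and 11.1% of those that fell. It lay in 9 of 24 of the lysosomal promoters and 4 of 11 of the v-ATPase promoters.

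**Figure D4:**
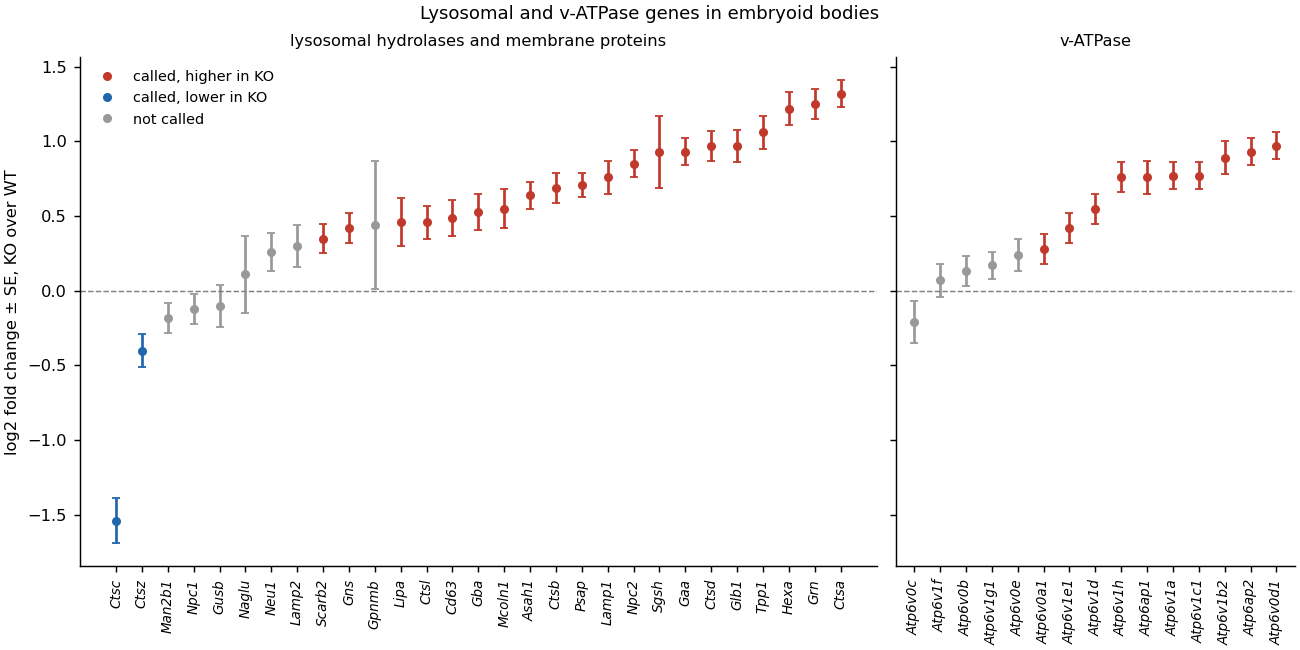
Fitted log2 fold change ± SE of KO over WT embryoid bodies for 29 lysosomal and 15 v-ATPase genes, in rising order, red for called and higher in KO, blue for called and lower in KO, grey for not called. Ctsc and Ctsz are the only genes plotted that were called lower, and none of the v-ATPase genes was.

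Of 20 autophagy genes and their regulators 9 rose and 3 fell. Sqstm1, the receptor p62, rose to 230.4 and 216 FPKM in KO, against 149 FPKM in WT (0.58 ± 0.09, adjusted p = 0.000419), and the receptor gene Optn by 1.04. Map1lc3a, an LC3 gene, fell to 16.9 and 19.3 FPKM in KO, against 35.6 FPKM in WT. The factor gene Tfe3 fell to 29.3 and 27.4 FPKM in KO, against 49.3 FPKM in WT (-0.79 ± 0.09, adjusted p = 3.29e-05). Tfeb lay the other way, at 8.69 and 7.66 FPKM in KO, against 5.19 FPKM in WT. It was called neither by DESeq2 (adjusted p = 0.0875) nor without KO replicate 1.

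Of 21 other genes of mTOR signalling 3 rose, 5 fell and 13 were not called, a share of calls near the 37.2% of all genes tested. Mtor, the kinase gene, and Rptor, the raptor gene, rose by 0.43 and 0.46, Rptor not being called by DESeq2 or without KO replicate 2. Castor2, a relative of the arginine sensor gene Castor1, fell to 1.92 and 2.02 FPKM in KO, against 5.54 FPKM in WT (-1.50 ± 0.17, adjusted p = 2.96e-05).

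Targets of ATF4, the factor of amino acid stress, were split, with 10 of 26 lower, 3 higher and a median of -0.19. Psat1 and Phgdh, enzymes of serine synthesis, fell to 33.2 and 35.8 FPKM and to 52.2 and 53.6 FPKM in KO, against 63.0 FPKM and 89.9 FPKM in WT. Mthfd2, a mitochondrial folate enzyme, fell by 1.08. Slc7a1, an arginine and lysine transporter, rose to 14.5 and 15.9 FPKM in KO, against 7.13 FPKM in WT (1.09 ± 0.11, adjusted p = 8.84e-06), and Asns, asparagine synthetase, by 0.80. Serine synthesis and asparagine synthesis thus lay on opposite sides. Without either KO library 6 members fell. Of 22 genes of cholesterol synthesis and uptake 7 fell and 1 rose, where 17.7% of all genes tested fell and 19.4% rose. Among those that fell were Hmgcs1 (-0.83), Dhcr7 (-0.71) and Fdps (-0.63).

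Of 17 glycolysis genes 6 rose and 1 fell, and without KO replicate 2, 3 rose. Pfkp, a phosphofructokinase, rose to 125 and 133 FPKM in KO, against 69.2 FPKM in WT. Eno1, enolase, fell by 0.27 and was called neither by limma on log2 FPKM nor without KO replicate 1. Ldha, Pgk1 and Aldoa, among the most abundant, were not called. Of 17 hypoxia response genes 4 rose, 1 fell and 12 were not called; without KO replicate 1, 2 rose, without KO replicate 2, 1 rose, and without either pluripotent KO library 7 rose. With a mean FPKM of at least 1 required, 2 of 16 rose. Among all genes tested 19.4% rose and 17.7% fell. Ddit4, an inhibitor of mTORC1 also known as REDD1, was the member that fell, to 21.6 and 28.0 FPKM in KO, against 93.2 FPKM in WT (-1.91 ± 0.31, adjusted p = 0.000457), but was called neither by DESeq2 (adjusted p = 0.0589) nor by limma on log2(FPKM + 0.1) (adjusted p = 0.0567). Kdm3a, a histone demethylase gene, rose by 1.12.

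Targets of p53 were lower in KO, 11 of 18 against 1 higher, with a median of -0.63. Perp, a desmosome-linked target, fell to 4.51 and 3.13 FPKM in KO, against 26.4 FPKM in WT (-2.80 ± 0.19, adjusted p = 6.14e-07). Plk2, a polo-like kinase, fell to 13.8 and 8.67 FPKM in KO, against 32.7 FPKM in WT (-1.55 ± 0.20, adjusted p = 8.32e-05). Bbc3, the apoptosis gene known as PUMA, and Cdkn1a, which encodes the cell cycle inhibitor p21, fell by 1.05 and 0.67. Trp53 itself was not called, at 135 and 139 FPKM in KO, against 139 FPKM in WT, and Sesn1 rose by 0.73.

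Of 24 cell cycle genes 7 rose and 4 fell, where 19.4% of all genes tested rose and 17.7% fell. Fewer of the 24 rose on leaving out either KO library. Ccnd1 and Ccnd2, D-type cyclins, fell to 10.2 and 9.51 FPKM and to 0.12 and 0.10 FPKM in KO, against 18.1 FPKM and 0.88 FPKM in WT. Ccnd3 was not called (0.16). Cdkn2a, a tumour suppressor locus, rose to 11.2 and 12.3 FPKM in KO, against 3.66 FPKM in WT (1.67 ± 0.26, adjusted p = 0.000361), and Cdkn1b, which encodes p27, rose by 0.89. The proliferation marker gene Mki67 rose to 28.8 and 28.5 FPKM in KO, against 23.1 FPKM in WT (0.31 ± 0.09, adjusted p = 0.0153) and lost its call without either KO library.

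MYC family genes differed. Mycn fell to 16.4 and 14.2 FPKM in KO, against 76.8 FPKM in WT (-2.33 ± 0.10, adjusted p = 2.59e-08), and Mycl by 0.86. Myc rose to 32.8 and 30.2 FPKM in KO, against 22.2 FPKM in WT, and was not called without KO replicate 1 (0.44, adjusted p = 0.0588). Of the 21 nucleolar and MYC-driven genes to which they belong 9 fell and 2 rose.

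Ribosomal protein genes were lower by small amounts: of 32 tested, 22 fell and none rose, with a median of -0.31. All 32 fitted values were negative, as they were in 13 of 15 alternative settings, with 31 of 32 negative in the other 2. Rps2 fell to 2485 and 2622 FPKM in KO, against 4309 FPKM in WT (-0.76 ± 0.10, adjusted p = 0.000105). The largest losses in FPKM were of this kind, Rps2, Rps12, Rpl28, Rplp0 and Rpl23a, with Ptma, a small acidic nuclear protein gene. Rpl23a was not called by limma on log2 FPKM, without a required FPKM or without KO replicate 2. Ribosomal protein genes have many near-identical pseudogene copies, so their counts are uncertain. The largest gains in FPKM were Hspb1, a small heat shock protein, at 1015 and 976 FPKM in KO, against 488 FPKM in WT, and Dnmt3l, Stmn1, Mrgpra6, Fabp3 and Hsp90aa1.

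Genes of the rare two-cell-like state fell, 9 of 9 tested, with a median of -2.21. Zscan4f, its best-known marker, stood at 29.5 and 21.0 FPKM in KO, against 118 FPKM in WT (-2.23 ± 0.18, adjusted p = 1.85e-06). Members of the Zscan4, Tcstv and Usp17l families are near-identical, so how reads were shared among them is uncertain. Of 16 germline genes 6 rose and 3 fell. Stra8, a retinoic acid target of meiotic entry, rose to 21.4 and 15.5 FPKM in KO, against 2.94 FPKM in WT (2.64 ± 0.35, adjusted p = 0.000104), and Sycp3, a synaptonemal complex gene, fell by 1.41.

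Of 16 Hox and retinoid genes tested 6 fell and 2 rose, and none of the Hox genes rose. Of the 16, 5 averaged under 0.5 FPKM over the KO libraries, and with a mean FPKM of at least 1 required, 3 of 8 fell and 2 rose. Cyp26a1, which degrades retinoic acid and marks the posterior embryo, fell to 0.11 and 0.11 FPKM in KO, against 4.13 FPKM in WT (-5.18 ± 0.55, adjusted p = 1.71e-05). Hoxb1 had 0 and 2 counts in KO and 33 in WT, a ratio of 0.03 (95% exact counting interval 0.00349 to 0.117). Of 12 Notch pathway genes 7 fell and 1 rose, and without KO replicate 1, 3 fell. The ligand gene Jag1 fell to 0.65 and 0.71 FPKM in KO, against 2.45 FPKM in WT (-1.85 ± 0.25, adjusted p = 0.000136).

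Imprinted genes, expressed from 1 parental allele, moved in both directions, 11 of 23 higher and 9 lower. Igf2, a fetal growth factor, fell to 0.38 and 0.31 FPKM in KO, against 5.90 FPKM in WT (-3.76 ± 0.28, adjusted p = 1.18e-06). H19, its neighbour with the opposite allele active, rose to 9.93 and 7.16 FPKM in KO, against 3.45 FPKM in WT (1.30 ± 0.26, adjusted p = 0.00215). Mest rose to 36.6 and 24.9 FPKM in KO, against 4.01 FPKM in WT (2.95 ± 0.42, adjusted p = 0.00016). Meg3, Rian and Mirg, noncoding RNAs of 1 cluster, rose by 2.48, 2.43 and 3.15, with the KO libraries far apart: Meg3 stood at 10.8 and 4.51 FPKM in KO, against 1.19 FPKM in WT. Snrpn and Peg3 fell by 1.32 and 1.64. Of 15 MHC and antigen presentation genes 6 fell and 2 rose: H2-Eb1, a class II gene, stood at 21.1 and 16.2 FPKM in KO, against 2.78 FPKM in WT, while the peptide transporter gene Tap1 fell by 2.22.

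The embryoid body difference was then set against the KO over WT difference of the other cultures. These share no library with it, but the calls of all cultures used the same spread for each gene. Shared calls are thus not independent. On day 4, 35.8% of genes were called, 18.4% higher and 17.4% lower in KO, and in pluripotent culture 51.8%, 25.5% higher and 26.3% lower. Of the 2719 genes that rose, 1764 (64.9%, and 68.7% of the 2569 that rose on day 4) also rose on day 4 without LIF and 32 fell there. Of the 2482 that fell, 1466 (59.1%, and 60.1% of day 4's 2441) also fell on day 4 and 20 rose. In pluripotent culture 1185 of the 2719 (43.6%, and 33.2% of 3574) also rose and 582 fell. Of the 2482, 987 (39.8%, and 26.9% of 3674) also fell in pluripotent culture and 459 rose. Of the genes that rose, 423 (15.6%) were called in neither direction in either of the other cultures, as were 554 (22.3%) of those that fell.

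Tests of the difference itself called 478 genes against day 4 (3.42%), 294 with a higher KO over WT value in embryoid bodies (2.1%) and 184 with a lower one (1.32%). These counts rested on few libraries: 104 and 62 were called without embryoid body KO replicate 1, 123 and 80 without replicate 2, and 190 and 115 without day 4 KO replicate 1. Against pluripotent culture 5854 genes were called (41.8%), 3127 higher (22.4%) and 2727 lower (19.5%). Of the naive genes 12 of 17 were higher in the embryoid body comparison than in the pluripotent one and none lower. Klf4 stood at 85.6 and 90.5 FPKM in pluripotent KO, against 155 FPKM in pluripotent WT, and its value in embryoid bodies was 2.12 higher on the log2 scale (adjusted p = 4.09e-06). Of the 32 ribosomal protein genes 30 were lower in the embryoid body comparison, and for Rps2 the difference was -1.17 (adjusted p = 9.11e-05). Of the 26 ATF4 genes 17 were higher, among them Psat1 at 1.15 (adjusted p = 3.19e-05). T, at 0.28 and 0.14 FPKM in pluripotent KO and 0.28 FPKM in pluripotent WT, differed by -7.38 (adjusted p = 8.76e-05), and Fgf5 by -4.15 (adjusted p = 7.92e-05).

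**Figure D5:**
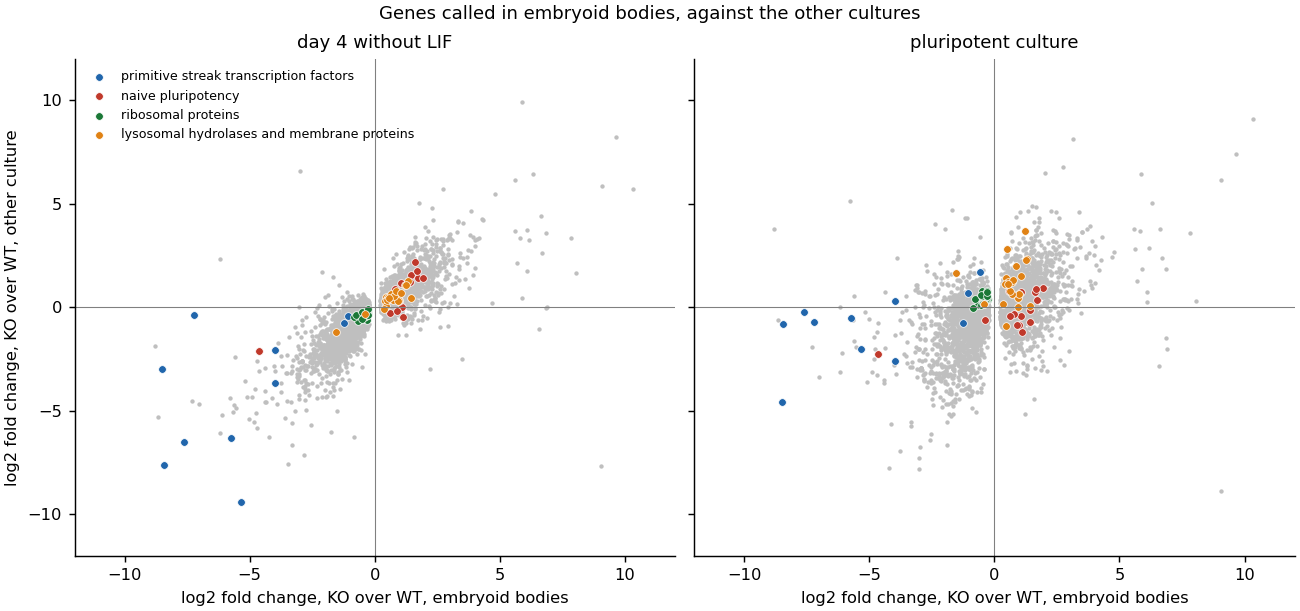
Fitted log2 fold change of KO over WT in embryoid bodies (x axis) for the 5201 genes called there, against that on day 4 without LIF (left) and in pluripotent culture (right), with called members of 4 lists in colour. Most points share the sign of embryoid bodies on day 4, while ribosomal protein genes lie lower in KO embryoid bodies and mostly higher in KO pluripotent cells.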

How the data were processed

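RNA sequencing of 9 libraries (2 KO and 1 WT in each of 3 cultures) was analysed, and 3 of them are the embryoid bodies. The authors deposited estimated counts and FPKM per gene. The submitters' processing notes name Bowtie2 and mm8. The quantifier and its strand setting are not given in the sources used here, so antisense and overlapping genes cannot be separated. Counts were rounded to whole numbers, and totals ran from 10147301 to 10863866. The files identify 20287 genes, of which 20234 matched a RefSeq gene ID, 9 an accession and 44 nothing.

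The 13990 genes whose FPKM averaged 0.5 or more in the 9 libraries were fitted in edgeR 4.0.16 (R 4.3.3) by the quasi-likelihood test with TMM scaling (factors 0.94 to 1.04) and 1 mean for each of 6 groups, which leaves 3 residual degrees of freedom, and the step was tested on simulated data. P-values were Benjamini-Hochberg adjusted over all genes tested. A difference between cultures was tested as the KO minus WT contrast of embryoid bodies minus that of the other culture. A fold against a group without a count was set against 3 counts over that group, and ratios with 1 to 3 counts carry an exact binomial 95% interval; both cover counting error only. Alternatives used DESeq2 1.42.0 and limma 3.58.1. Genes named are the 15 largest rises and falls with a mean FPKM of at least 1 in the higher group and an informative symbol, the 6 largest gains and losses in FPKM, the 6 largest differences between cultures in each direction, members of 42 gene lists, and Lamtor5. Members and lists were chosen with earlier results of these data known. Promoters come from RefSeq on GRCm38.p6. Some members of the lists are counted and not reported here by name.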

Additional observations from a re-analysis of the deposited data

Results flagged for a closer look

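The KO over WT difference of embryoid bodies departed from that of day 4 cells without LIF in 294 genes with a higher and 184 with a lower value, and from that of pluripotent cells in 3127 and 2727 genes, by edgeR's quasi-likelihood test of the difference itself. Against day 4 the log2 difference was -3.86 for Gata6, -3.35 for the follistatin gene Fst, -2.75 for Sema6a, -2.36 for Dgkk, -1.58 for Dusp6, -1.35 for Spry1 and 1.24 for Id2. By limma, Gata6, Spry1 and Id2 were not called on log2(FPKM + 0.1) (adjusted p = 0.0874, 0.0731 and 0.12) nor on log2(FPKM + 1) (adjusted p = 0.0921, 0.0537 and 0.0891), and Sema6a was not called on log2(FPKM + 0.1) (adjusted p = 0.115). The difference of Fst lost its call in 9 alternatives, among them leaving out day 4 KO replicate 1 (adjusted p = 0.13, quasi-likelihood test) or embryoid body KO replicate 2 (-2.37, adjusted p = 0.125).

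Against pluripotent culture the log2 difference was -8.06 for Fst, -7.38 for T, -4.15 for Fgf5, -3.41 for Krt8, -1.17 for Rps2, 2.12 for Klf4, 1.47 for Klf5, 1.15 for Psat1 and 1.10 for Zfp42.

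Other genes had a group of 3 or fewer counts, so no size is given. Against day 4 the adjusted p of edgeR's quasi-likelihood test was 0.0479 for Acsm4, 0.0182 for Ly6g6d, 0.0135 for Rsc1a1, 0.0457 for Xlr4a, 0.014 for Rem2 and 0.026 for Prr15l, all with a higher value in embryoid bodies. It was 0.0339 for H2-Q6 and 0.0233 for Foxa2, with a lower one. Against pluripotent culture it was 0.0361 for H4c12, 0.000724 for Acsm4, 0.000598 for Rspo4, 0.022 for Mir8112, 0.000104 for Car12 and 0.00153 for Lmcd1, all with a higher value. It was 0.0214 for H2bc11, 0.000152 for Fgf8, 0.00835 for Fam177a and 0.00137 for Sp5, with a lower one.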

How the results depend on the processing

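Of 199 called genes tested again under 15 alternatives, 177 kept their call in every one in which they were tested. DESeq2 called 1629 genes higher and 1260 lower in KO embryoid bodies, and leaving out 1 KO library gave 2047 to 2814 higher and 1764 to 2658 lower. Departures from day 4 numbered 121 and 116 by DESeq2, 52 and 19 by limma on log2(FPKM + 0.1), and 74 and 42 on log2(FPKM + 1), with 104 to 342 and 62 to 223 on leaving out 1 library. Departures from pluripotent culture numbered 1729 and 1557 by DESeq2, with 2482 to 3203 and 2126 to 2904 on leaving out 1 library. The causes were not tested. With the replicate number as a block, 3097 genes were higher and 2972 lower in embryoid bodies, and 667 and 487 departed from day 4. Deviations of same-numbered KO libraries correlated at 0.0985, 0.0626 and 0.251, the last between day 4 and pluripotent culture. Whether libraries with the same number share a clone or a culture is not given by the labels and was not tested. Mesp2 was at -0.25 without embryoid body KO replicate 1 and 0.08 without replicate 2, and Tbx6 at -0.04 and 0.45. A fit that leaves out a KO library assumes that the lone library varies like the other groups. With 1 WT library, no spread among WT embryoid bodies could be measured.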
